A study of Bos taurus with 15 samples.

Results

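The response of bovine fetal fibroblasts (BFFs) to ectopic expression of wild-type (WT) ARGFX was measured in 8 of the 15 samples of the series, 4 transfected with a plasmid carrying WT ARGFX and 4 with the empty control plasmid. The samples were taken by their column headings rather than by a measured value, although earlier results of these data were known when the comparison was chosen. BFFs are connective tissue cells, and all cultures here were grown at passage 4 from the skin of a single Bos taurus fetus aged 6 months, so the samples share 1 donor animal. Cells were electroporated, selected in puromycin at 4 μg/mL and lysed for RNA 72 h after transfection. Both plasmids had the same backbone, in which a constitutive CMV promoter drives the inserted gene, and the ARGFX protein carried a FLAG tag at its end. A further 3 samples received a mutant ARGFX allele and 4 received LEUTX, and these were used for direct comparison with WT ARGFX and to estimate the spread between samples. The design text calls the samples biological replicates, and p-values measure the spread between these cultures of 1 animal.

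ARGFX is one of the ETCHbox genes, homeobox genes of placental mammals that arose by duplication of CRX and are active mainly in the embryo before implantation. Its protein is a transcription factor that contacts DNA through a homeodomain. Fibroblasts do not normally use the gene. In connective tissue they make collagens, fibronectin and other parts of the extracellular matrix, and they pull on that matrix through actin and myosin.

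The start of the transfected ARGFX coding sequence shows the deletion that sets the mutant allele apart. The stretch below, taken from the supplementary sequence of the study, runs from the start codon over 125 bases. Capitals mark the 13 bases that the mutant allele lacks, with 96 bases before them and 16 after. Their loss shifts the reading frame and brings a premature stop. In the mutant plasmid a linker and the FLAG tag replaced that stop. The rest of the WT coding sequence, with the homeodomain, is absent from it.
WT ARGFX: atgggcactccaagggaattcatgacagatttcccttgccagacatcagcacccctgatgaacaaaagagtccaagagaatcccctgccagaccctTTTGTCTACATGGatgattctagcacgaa

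Expected counts summed to between 25947911 and 28163565 per control sample and between 31359218 and 35178524 per WT ARGFX sample, so every WT ARGFX library was deeper than every control library. A count was found for 15396 to 15965 genes in the control samples and for 15594 to 16082 genes with WT ARGFX. A pair of WT ARGFX columns have the same heading, and these samples are called A and B in the order of the table. Sample B stood apart from the other WT ARGFX samples. Its mean Euclidean distance to them, over log2 CPM of the tested genes, was 51.0, whereas WT ARGFX 1, 2 and A had mean distances of 31.2, 31.5 and 30.6 within the group. The control samples had mean distances of 35.9 to 43.8 from each other, and controls 2 and 3 were 54.8 apart. That is above the smallest distance between a control and a WT ARGFX sample, which was 54.0. For many of the genes in which sample B split the group, the change is given with and without it. Levels are given per sample as CPM, counts scaled to the library size after TMM normalization. CPM is not divided by transcript length, and a level is therefore compared between samples for the same gene.

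The transfected gene was present as labelled. ARGFX stood at 4506 CPM in WT ARGFX 1, 3175 CPM in WT ARGFX 2, 3039 CPM in A and 3100 CPM in B, with a mean of 3455 ± 703 CPM (SD, n = 4). It made up 0.287% to 0.448% of all expected counts in those libraries. Its rounded count was 0 in 3 control samples and 1 in the fourth, with 107.7 M counts in all. The ratio of WT ARGFX to control was 367211, with an exact Poisson interval (95%, counting error only) from 65907 to 14504053. In the 3 samples with the mutant allele ARGFX made up 0.363% to 0.651% of the counts, and the difference of -0.65 ± 0.24 (log2, SE, WT minus mutant) did not pass (adjusted p 0.275, edgeR's quasi-likelihood test). ARGFX is left out of the distributions of effect size below.

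WT ARGFX was followed by changes in both directions. Genes were called at an adjusted p under 0.05 (edgeR's quasi-likelihood test, Benjamini-Hochberg over 14264 genes), a fold change over 1.5 and a mean above 5.37 CPM, a level that 10094 of the tested genes exceeded. By this rule 551 genes, ARGFX among them, were upregulated (5.46% of the genes that could be called) and 586 were downregulated (5.81%). By the adjusted p alone, 1866 were higher (18.5%) and 1742 lower (17.3%). Without sample B the counts were 681 up and 650 down, of which 466 and 516 were also called with it. A test of whether the fold change itself exceeds 1.5 (glmTreat) left 67 genes up and 251 down. A fit to the control and WT ARGFX samples alone called 464 up and 614 down.

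**Figure D1:**
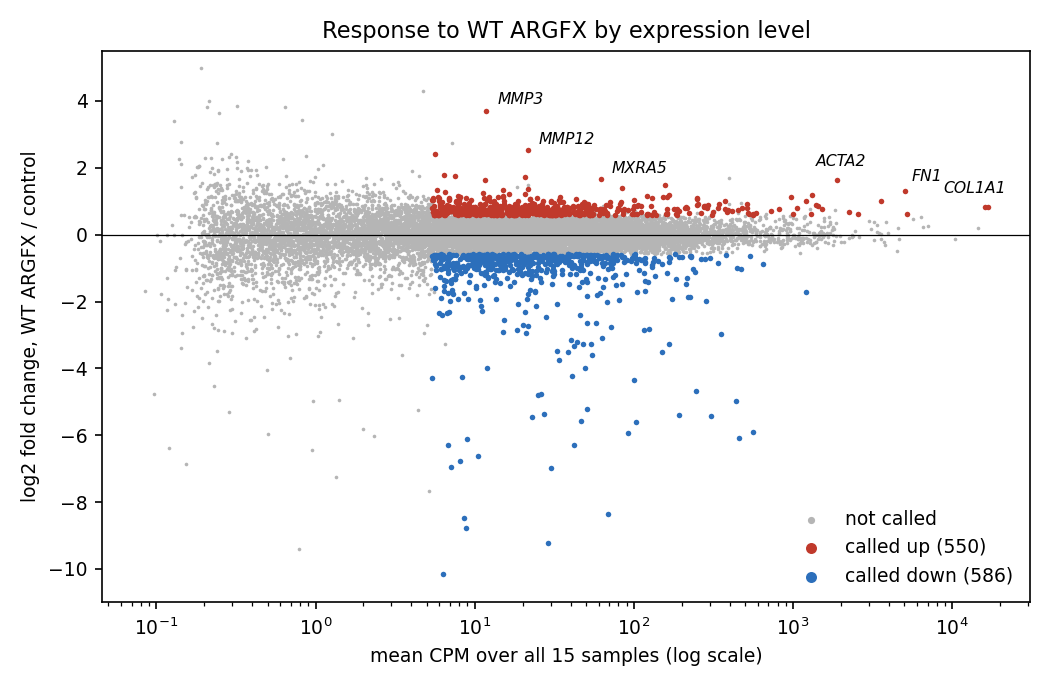
Log2 fold change between WT ARGFX and control (vertical axis) against mean CPM over all 15 samples (horizontal axis, log scale), 1 point per tested gene. The 550 genes called up (red, ARGFX not drawn) have a median of 0.71 and reach 3.71. The 586 called down (blue) have a median of -0.84 and reach -10.15.

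The responding genes were spread over the whole range of levels. With the CPM threshold set aside, 3.87% of the 1860 genes up to 1 CPM passed the p and fold change thresholds upward and 7.74% downward. Between 1 and 10 CPM, where the shares for both directions were close, 10.3% of 3625 genes passed upward and 9.99% downward. Between 10 and 100 CPM the shares were 5.02% and 5.84% of 6973 genes, and between 100 and 1000 CPM they were 3.89% and 3.83% of 1672 genes. Above 1000 CPM, 17 of 134 genes were upregulated (12.7%, ARGFX included) and 1 was downregulated (0.746%). The downregulated share there was 2.24% without sample B and 1.49% without WT ARGFX 1, and the upregulated share was 3.73% with glmTreat. The standard error moved with the level as well. Its median was 0.49 (log2) up to 1 CPM, 0.19 from 1 to 10 CPM 0.11 from 10 to 1000 CPM and 0.15 above 1000 CPM, and the part this plays in the shares was not tested.

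The excess of increases among the most abundant transcripts was smaller when genes were placed by the control samples alone. Of the 141 genes above 1000 CPM in the controls, 7.09% were upregulated and 2.84% downregulated, and between 100 and 1000 CPM the downregulated share (6.23%) was above the upregulated one (3.2%). A mean over all samples includes those in which the change was measured and those with LEUTX, so both placements are shown. SERPINE2, for example, had a mean of 898 CPM with WT ARGFX and less in the controls, and its mean over all samples was 1323 CPM. The 16 upregulated genes above 1000 CPM, ARGFX apart, took 4.62% of the counts in control samples and 8% with WT ARGFX, with a median change of 0.82. An identifier could be paired with a symbol for 11 of them, namely COL1A1, COL1A2, COL3A1, COL5A1, COL5A2, COL6A3, FN1, FBN1, MYH9, ACTA2 and SERPINE2. These 11 were listed after their values were seen.

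**Figure D2:**
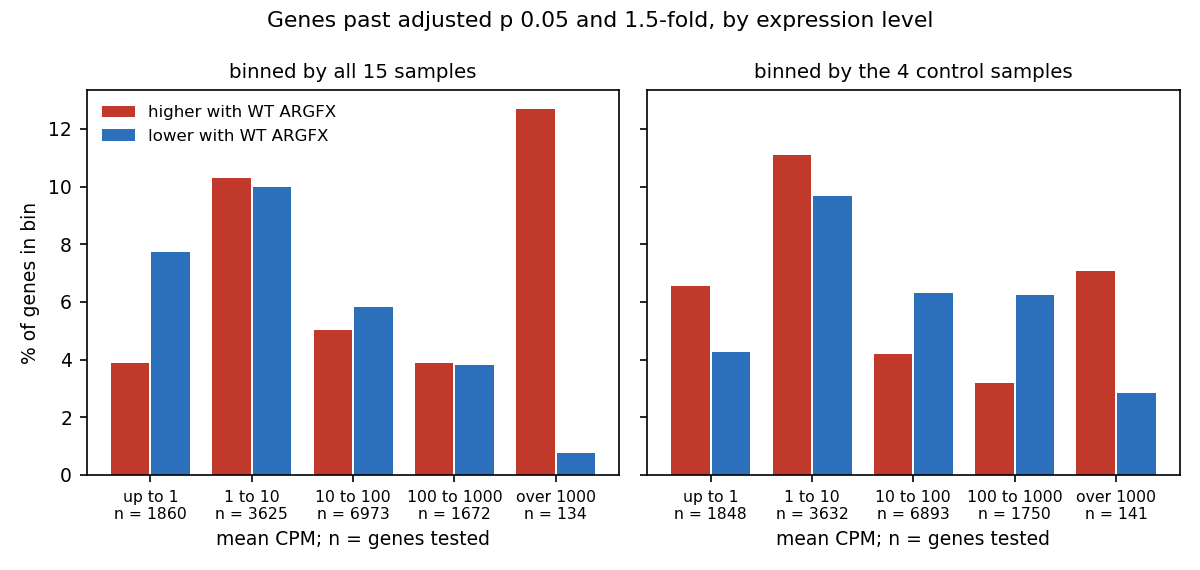
Percentage of tested genes past an adjusted p of 0.05 and 1.5-fold (vertical axis), higher (red) or lower (blue) with WT ARGFX, in bins of mean CPM over all 15 samples (left) or over the 4 control samples (right). In the bin over 1000 CPM the red bar is 12.7% on the left and 7.09% on the right.

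Of the upregulated genes 88.5% changed by less than 2-fold, as did 63.7% of the downregulated genes, which had a longer tail. Among the 550 upregulated genes the median log2 fold change was 0.71, with quartiles of 0.64 and 0.84 and a 95th percentile of 1.13. Among the 586 downregulated genes it was -0.84, with quartiles of -1.20 and -0.67 and a 5th percentile of -4.17. Over all 14263 tested genes other than ARGFX the median was 0.02, and 81.6% lay within 1.5-fold of no change. An increase over 2-fold was measured for 63 of the upregulated genes (11.5%), over 4-fold for 3 and over 8-fold for 1. A decrease over 2-fold was measured for 213 of the downregulated genes (36.3%), over 4-fold for 69 (11.8%), over 8-fold for 44 (7.51%) and over 16-fold for 30 (5.12%). Without sample B, 82 genes were raised and 208 lowered over 2-fold, and 48 were lowered over 8-fold. With no CPM threshold, 207 genes were raised and 462 lowered over 2-fold, and the genes then added include APOA1, which was raised over 8-fold.

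**Figure D3:**
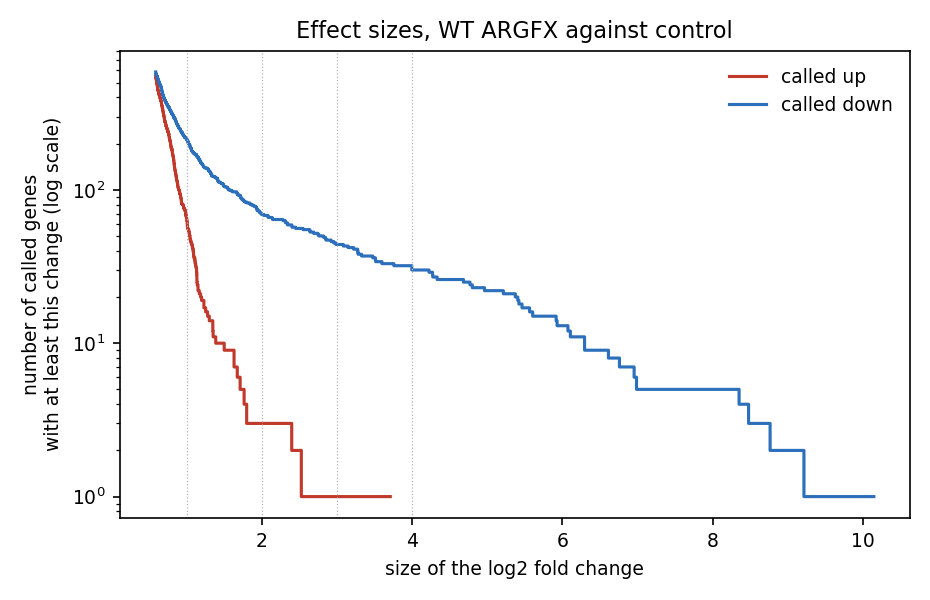
Number of called genes (vertical axis, log scale) whose log2 fold change is at least the size on the horizontal axis, for genes called up (red, ARGFX left out) and down (blue). Past a change of 3 (8-fold) there is 1 upregulated gene and there are 44 downregulated genes.

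Separation between the samples was counted in both directions. In 562 of 586 (95.9%) every WT ARGFX sample lay below every control sample, and in 432 of the 550 upregulated genes (78.5%) every WT ARGFX sample lay above every control sample. Over the genes that could be called, the share without overlap was 14.8% in each direction. Sample B had the smallest increase of the 4 WT ARGFX samples in 47.1% of the upregulated genes, against 16% to 19.1% for the others. The median difference from the control mean over the upregulated genes was 0.70 (log2) in B and 0.76, 0.78 and 0.77 in WT ARGFX 1, 2 and A. Over the downregulated genes it was -0.97 in B and -0.79, -0.85 and -0.83 in the others, while B had the smallest decrease in 35.2% of them, against 14.7% to 32.6% for the others. The genes were chosen on these samples, so these values describe the spread and test nothing.

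In the 44 genes lowered over 8-fold, control means ran from 15.3 to 1544 CPM with a median of 106 CPM, and the median was 4.94 CPM with WT ARGFX. A gene so low with WT ARGFX could exceed the threshold of 5.37 CPM, a mean over all samples, only through its level in other groups, so high control levels follow in part from the filter. Every WT ARGFX sample lay below every control sample in all 44. None could be given a symbol from the sources used here, and they are described by identifier. Loss of expression in bulk RNA cannot be told apart from loss of the cells that expressed the gene: fewer cells of a type and less RNA per cell give the same value.

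ENSBTAG00000014529.5 and ENSBTAG00000012406.6 had the largest fitted decreases of the called genes, and their order changed with the prior count of the fit. ENSBTAG00000014529.5 stood at 16.3, 19.6, 28.8 and 22.9 CPM in control samples 1 to 4, and its counts were 1, 0, 1 and 0 in WT ARGFX 1, 2, A and B. From these 2 counts in 132.0 M, the level was 1495 times higher in the controls, with an exact Poisson interval from 414 to 12344. For ENSBTAG00000012406.6 the same ratio was 638, with an interval from 413 to 1044, and the intervals overlap. ENSBTAG00000012406.6 fell from 63.9, 87.5, 120 and 103 CPM in the control samples to 0.225, 0.0555, 0.121 and 0.23 CPM with WT ARGFX. The log2 fold change was -9.22 ± 0.41 (SE), with an adjusted p of 5.32e-11 (edgeR's quasi-likelihood test). Neither gene overlapped between the groups.

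Named genes come from the study's own list of upregulated genes, and all of them are therefore genes that rose in these samples. Of its 232 rows read here, 220 carried a symbol, and the list is shortened to its larger increases. Of the 220 genes, 193 were called up in the present fit and none was called down, with a median log2 fold change of 0.86 against 0.02 over all genes. The other 27 had an adjusted p under 0.05 but lay below the CPM threshold. In 195 of the 220 every WT ARGFX sample lay above every control sample, against 14.8% of the genes that could be called. Because the list was chosen on these samples, neither the direction nor the counts of the groups below are independent evidence, and no downregulated gene can appear in them. Members of a group that could not be paired with an identifier were not analysed, and only paired members are called measured. A further 357 upregulated genes had no symbol. The largest increases among those were in ENSBTAG00000005710.6, from a mean of 1.52 ± 0.44 to 8.06 ± 1.18 CPM (SD, n = 4), and ENSBTAG00000045998.2, from 3.26 ± 0.92 to 11.1 ± 0.60 CPM.

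Matrix remodeling genes held the largest increases among called genes with a symbol. Of 24 members listed, 9 were measured and all 9 were upregulated, against 193 of all 220 named genes. The median was 1.05. MMP3, a metalloproteinase that cuts proteoglycans, fibronectin and other matrix proteins, was at 2.99, 3.43, 1.92 and 1.95 CPM in control samples 1 to 4 and at 29.3, 25.6, 37.1 and 42.8 CPM in WT ARGFX 1, 2, A and B. The groups did not overlap, and the log2 fold change was 3.71 ± 0.22 (SE), with an adjusted p of 2.07e-09 (edgeR's quasi-likelihood test). MMP12, the macrophage elastase, went from 4.6, 3.76, 3.19 and 2.36 CPM to 20.4, 18.2, 19.3 and 22.4 CPM, a change of 2.53 ± 0.18. These were the only called genes with a symbol that rose over 4-fold. SERPINE2, a secreted inhibitor of thrombin and other serine proteases, stood at 407, 476, 322 and 362 CPM in the controls and at 920, 718, 906 and 1049 CPM with WT ARGFX (1.2 ± 0.14). MRC2, an endocytic receptor for collagen, showed a split within the WT ARGFX group, with 365, 358 and 346 CPM in 3 samples and 217 CPM in B, where the control samples reached 203 CPM. Its change was 1.06 ± 0.22 with B and 1.2 ± 0.20 without it.

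Of 17 collagens listed, 8 could be paired with an identifier. All 8 were upregulated (193 of all 220 named genes), with log2 fold changes of 0.75 to 1.09 and a median of 0.86. Type I collagen is the main fibrous protein of skin. COL1A1 rose from 13992, 10206, 11408 and 12520 CPM to 23629, 21207, 20127 and 19608 CPM, with a log2 fold change of 0.81 ± 0.15 and an adjusted p of 0.00078. COL1A2, its partner chain, rose from a mean of 11938 ± 1326 to 21096 ± 1164 CPM (SD, n = 4). COL3A1, which forms fibrils with type I collagen, was at 3131, 2955, 2504 and 2510 CPM in the controls and at 6321, 5911, 5234 and 4841 CPM with WT ARGFX (1.01 ± 0.14).

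None of these 3 collagen genes overlapped between the groups. COL11A1, a minor fibrillar collagen, rose from 118 ± 14.8 to 251 ± 48.5 CPM (SD, n = 4). COL15A1, a collagen next to basement membranes, rose from 93.8 ± 7.33 to 171 ± 28.1 CPM. COL6A3, a chain of the beaded filaments, overlapped in sample B alone, where it stood at 1368 CPM against 2315, 2592 and 2124 CPM in the other WT ARGFX samples and 1266, 877, 1417 and 997 CPM in the controls. Its change was 0.88 ± 0.20 (log2, SE) with B and 1.03 ± 0.18 without it. The WT ARGFX samples lay above all controls in 6 of the 8 collagens with sample B and in 8 of 8 without it, and the median change without it was 0.97. Fewer samples separate more easily. Over the 10094 genes that could be called, 1489 lay above all controls with sample B and 2444 without it.

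Matrix glycoproteins and proteoglycans followed, with 13 of 25 listed members measured and a median of 0.90. Upregulated were 12 of the 13, against 193 of all 220 named genes. FN1, the fibronectin gene, was at 2991, 1734, 3098 and 1997 CPM in the controls and at 6764, 7092, 6743 and 3578 CPM in WT ARGFX 1, 2, A and B. Sample B lay nearer to the highest control than to the rest of its group. The change was 1.30 ± 0.26 with it and 1.47 ± 0.23 without it. MXRA5, a matrix protein whose role is less well described, ran the same way, with 138, 126 and 147 CPM in 3 samples and 51.9 CPM in B above controls at 45.0, 21.7, 46.5 and 32 CPM (1.67 ± 0.32 with B, 1.91 ± 0.27 without it). NID2, a basement membrane linker, rose from 653 ± 87.5 to 1432 ± 323 CPM (SD, n = 4), with B lowest at 985 CPM, and its change was 1.13 ± 0.17 with B and 1.27 ± 0.14 without it. TGFBI, a matrix protein that binds integrins, went from 98.9 ± 19.2 to 215 ± 29.4 CPM, and B was not the lowest sample there. FIBIN lay below the CPM threshold, at 1.99 ± 0.16 CPM in controls and 5.95 ± 0.66 CPM with WT ARGFX.

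**Figure D4:**
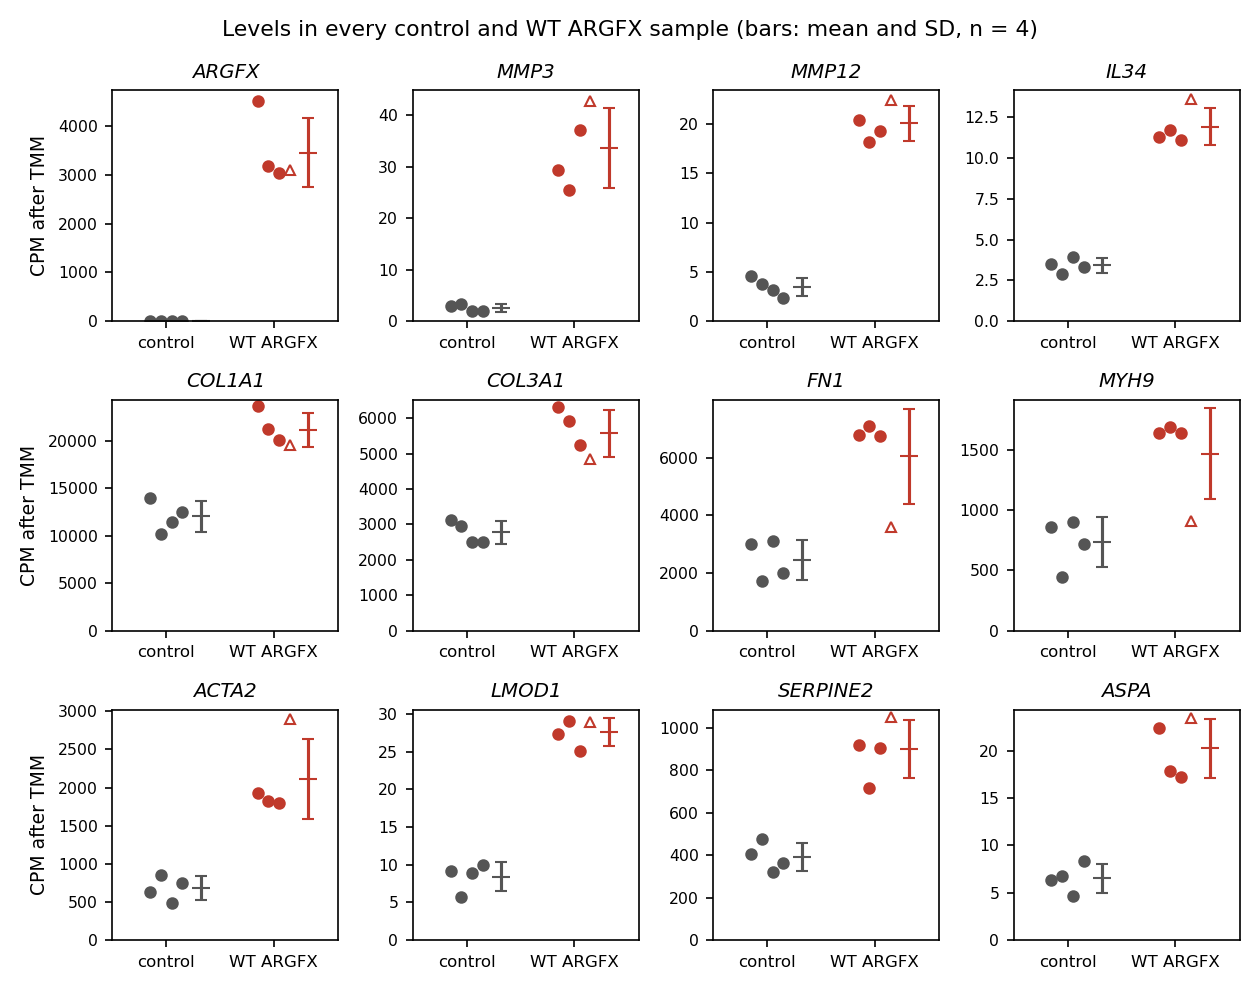
CPM after TMM (vertical axes, from 0) in the 4 control (gray) and 4 WT ARGFX (red) samples for 12 genes, with group mean and SD beside the points. The open triangle is WT ARGFX sample B, which stands at 3578 CPM for FN1 and 909 CPM for MYH9, below the other 3 WT ARGFX samples, and at 2902 CPM for ACTA2, above them.

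Of 31 contractile cytoskeleton genes listed, 20 were measured and 19 of these were upregulated (18 without sample B), against 193 of all 220 named genes. The median was 0.90. LMOD1, an actin nucleator of smooth muscle, rose from 9.12, 5.67, 8.89 and 9.99 CPM to 27.3, 29.0, 25.1 and 28.9 CPM (1.71 ± 0.19, adjusted p 5.25e-06 in edgeR's quasi-likelihood test). ACTA2, the smooth muscle actin that marks myofibroblasts, was at 634, 859, 484 and 754 CPM in the controls and at 1923, 1826, 1800 and 2902 CPM with WT ARGFX. Both genes kept the groups apart, and for ACTA2 sample B was the highest (1.63 ± 0.18 with it, 1.43 ± 0.15 without it). Actin genes have near-identical coding sequences, so the division of reads among them is uncertain. ITGA11, a collagen receptor, rose from 8.81 ± 1.45 to 22.4 ± 4.90 CPM (SD, n = 4; log2 change 1.35 with B and 1.48 without it), and LMCD1, a LIM domain protein, from 7.10 ± 1.13 to 15.6 ± 2.45 CPM. MYH9, the heavy chain of nonmuscle myosin, was at 862, 445, 904 and 717 CPM in the controls and at 1638, 1689, 1641 and 909 CPM with WT ARGFX, so that sample B was just above the highest control (1.01 ± 0.25 with B, 1.17 ± 0.22 without it). RAC3, a small GTPase below the CPM threshold, had means of 3.76 ± 0.94 and 6.68 ± 1.79 CPM. The groups overlapped, B was highest at 9.12 CPM, and the change was 0.83 ± 0.20 with B and 0.64 ± 0.19 without it.

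Of 14 tubulin and microtubule genes listed, 9 were measured and all 9 were upregulated (193 of all 220 named genes), with a median of 0.80. The tubulins among them are close copies whose reads are hard to divide. MAP1B, which stabilizes microtubules, stood at 89.9, 44.4, 110 and 62.9 CPM in the controls and at 204, 218 and 209 CPM in 3 WT ARGFX samples, and at 66.4 CPM in B, inside the control range. Its change was 1.18 ± 0.34 (adjusted p 0.014, edgeR's quasi-likelihood test) with B and 1.44 ± 0.27 (adjusted p 0.000567) without it. KIF7, a kinesin of the Hedgehog pathway, behaved alike, with 25.6, 29.1, 28.2 and 13.1 CPM against controls of 12.1, 5.42, 20 and 10.1 CPM (1.01 ± 0.35 with B, 1.2 ± 0.33 without it). CLIP2, a protein of microtubule plus ends, rose from 25.8 ± 6.10 to 45.5 ± 9.32 CPM (SD, n = 4), a change of 0.82 with B and 0.94 without it, and EML1, a microtubule-binding protein, from 23.2 ± 1.98 to 40.7 ± 4.81 CPM. Only EML1 of these 4 kept the groups apart.

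Of 26 cell division genes listed, 14 were measured and 11 of these were upregulated, against 193 of all 220 named genes. The median was 0.85, and the group held both promoters and inhibitors of division. IQGAP3, a scaffold found in dividing cells, rose from 21.5 ± 1.74 to 39.1 ± 6.00 CPM (SD, n = 4). CDKN2C, which encodes an inhibitor of the kinases CDK4 and CDK6, rose from 6.39 ± 1.81 to 12.1 ± 1.97 CPM. CIT, a kinase of cytokinesis, and KIF20B, a kinesin of the same step, passed with adjusted p-values of 0.016 and 0.0391 (edgeR's quasi-likelihood test) and overlapped the controls in sample B, at 18.2 and 11.7 CPM. Their changes were 0.94 ± 0.27 and 0.93 ± 0.32 with B and 1.13 ± 0.24 and 1.10 ± 0.31 without it. KIF20B missed the threshold when control 1, 2 or 4 or WT ARGFX 1, 2 or A was left out (adjusted p 0.0523 to 0.0982), as did KIF7 among the microtubule genes (0.0682 to 0.0918). CIT missed it without A (0.0515). CDKN3, CENPK and TEDC1 lay below the CPM threshold, with log2 fold changes of 0.83 ± 0.17, 0.88 ± 0.15 and 1.2 ± 0.32. For TEDC1 sample B, at 1.48 CPM, lay inside the control range, and the change without it was 1.37 ± 0.31.

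Of 16 genes of amino acid and mitochondrial one-carbon metabolism listed, 8 were measured and all 8 were upregulated, against 193 of all 220 named genes. The median was 0.94. ASPA, which splits N-acetylaspartate, was at 6.38, 6.75, 4.64 and 8.39 CPM in the controls and at 22.4, 17.9, 17.2 and 23.4 CPM with WT ARGFX (1.63 ± 0.15). ASL, the argininosuccinate lyase of the urea cycle, was at 7.81, 7.95, 7.55 and 8.12 CPM in the controls and at 15.6, 17.4, 18.2 and 22.5 CPM with WT ARGFX (1.23 ± 0.10, adjusted p 1.83e-07 in edgeR's quasi-likelihood test). PCK2, the mitochondrial enzyme that makes phosphoenolpyruvate, rose from 24.5 ± 5.28 to 48.4 ± 10.9 CPM (SD, n = 4), and ALDH1L2, a mitochondrial folate enzyme, from 36.4 ± 5.02 to 70.7 ± 7.27 CPM. The groups did not overlap in any of the 8, nor in 195 of all 220 named genes.

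Of 16 oxidation-reduction and fuel choice enzymes listed, 14 were measured and 13 of these were upregulated, with a median of 0.84. None of the 14 overlapped. Over all 220 named genes, 193 were upregulated and 195 did not overlap. PDK2, a kinase that slows pyruvate dehydrogenase, rose from 7.35 ± 0.64 to 16.1 ± 1.13 CPM (SD, n = 4). NQO1, a quinone reductase, rose from 13.7 ± 2.66 to 27.4 ± 3.96 CPM. ALDH1A1, which makes retinoic acid, rose from 45.6 ± 11.8 to 89.1 ± 15.5 CPM, and HTATIP2, an oxidoreductase, from 16.1 ± 3.36 to 29.7 ± 5.34 CPM. SELENOV, a selenoprotein below the CPM threshold, had means of 2.18 ± 0.45 and 5.14 ± 0.54 CPM.

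Of the secreted signals and receptors, 10 of 12 measured members were upregulated (193 of all 220 named genes), with a median of 1.15. IL34, a ligand of the CSF1 receptor, rose from 3.53, 2.89, 3.95 and 3.32 CPM to 11.3, 11.7, 11.1 and 13.6 CPM, with a log2 fold change of 1.80 ± 0.17. CALCB, a calcitonin gene-related peptide, went from 6.79 ± 1.19 to 19.2 ± 3.68 CPM (SD, n = 4). TMEM158, a membrane protein induced by Ras, varied widely among the controls, at 46.1, 31.9, 13.4 and 15.6 CPM, and was at 55.0, 65.6, 77.0 and 82.1 CPM with WT ARGFX (1.39 ± 0.28). SEMA3E, a guidance molecule that binds a plexin, rose from 8.60 ± 2.29 to 20.1 ± 3.20 CPM.

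APOA1, the main protein of high-density lipoprotein, had the largest log2 fold change of the 220 genes with a symbol, 4.28 ± 0.32, with an adjusted p of 5.33e-08 from edgeR. At a mean of 4.71 CPM it fell short of the level needed for a call. It was at 0.428, 0.506, 0.515 and 0.61 CPM in the controls and at 10.8, 6.44, 7.75 and 15.4 CPM with WT ARGFX. All samples of the groups were well apart. IL17D, a cytokine also under the threshold, had means of 0.93 ± 0.18 and 1.84 ± 0.39 CPM, and its adjusted p of 0.0196 (edgeR's quasi-likelihood test) became 0.0545 without control 3.

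Of 19 DNA-binding and chromatin regulators listed, 17 were measured and 13 of these were upregulated (193 of all 220 named genes), with a median of 0.84. MEIS3, a homeobox gene, rose from 3.59 ± 0.57 to 7.35 ± 1.19 CPM (SD, n = 4), by 1.03 on the log2 scale with B and 1.13 without it. KLF2, a zinc finger factor, rose from 22.9 ± 2.81 to 41.6 ± 4.84 CPM (0.86 with B, 0.77 without it), and JDP2, which dimerizes with JUN proteins, from 11.9 ± 1.76 to 21.5 ± 1.32 CPM. CREB3L2, a membrane-bound factor of the secretory pathway, was at 22.9, 22.6 and 23.8 CPM in 3 WT ARGFX samples and at 12.2 CPM in B, inside the control range of 9.0 to 13.4 CPM (0.84 ± 0.17 with B, 1.01 ± 0.12 without it). Below the CPM threshold were GSX1, another homeobox gene, with 1.61 ± 0.46 (log2, SE), MXD3, a partner of MAX, with 1.12 ± 0.19, EAF2, an elongation factor partner, with 0.91 ± 0.26, and ETV2, an ETS factor, with 0.81 ± 0.21. ETV2 was at 5.84 CPM in B against 2.98 to 3.55 CPM in the other WT ARGFX samples, and without B its change was 0.55 ± 0.17, under 1.5-fold.

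Among 8 phosphoinositide and lipid transfer genes, 7 were upregulated with a narrow range of 0.77 to 0.88 over the group, and none of the 8 overlapped. The counts over all 220 named genes were 193 upregulated and 195 without overlap. ESYT1, which tethers the endoplasmic reticulum to the plasma membrane, rose from 134 ± 18.5 to 246 ± 6.31 CPM (SD, n = 4). FIG4, a phosphoinositide phosphatase, rose from 11.8 ± 0.95 to 21.7 ± 1.79 CPM, OSBPL6, an oxysterol-binding protein, from 16.7 ± 1.42 to 30.1 ± 1.24 CPM, and PLD2, a phospholipase, from 16.2 ± 0.81 to 28.8 ± 4.08 CPM. PLPP7 lay below the CPM threshold at 0.77 ± 0.22 (log2, SE).

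Of 10 kinases and their regulators 9 were upregulated (193 of all 220 named genes), with a median of 0.85. RASA3, which turns off Ras and Rap, rose from 24.3 ± 2.00 to 49.3 ± 4.45 CPM (SD, n = 4). CKB, the brain-type creatine kinase, was at 31.3, 29.7, 33.2 and 53.1 CPM with WT ARGFX against 18.3, 24.7, 14.2 and 21.6 CPM in the controls (0.90 ± 0.18 with B, 0.67 ± 0.14 without it). NEK1, a kinase of cilia and DNA repair, overlapped in sample B, at 13.5 CPM against a highest control of 14.8 CPM (0.88 ± 0.20 with B, 1.02 ± 0.17 without it). PRKACA, a catalytic subunit of protein kinase A, rose from 26.2 ± 4.09 to 47.2 ± 3.83 CPM. PTP4A3, a phosphatase below the CPM threshold, was at 0.88 ± 0.29 (log2, SE), and its adjusted p of 0.028 (edgeR's quasi-likelihood test) rose to between 0.0549 and 0.0837 without control 1, 2 or 4, WT ARGFX 2 or B.

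Markers of the cell type were checked against the label. Of 12 fibroblast markers 7 could be paired with an identifier, and COL1A1, COL1A2, COL3A1, FN1, FBN1, POSTN and SNAI2 were expressed in every sample. All 7 were upregulated, which was fixed in advance, since a fibroblast marker has an identifier here only if it is on the study's list of upregulated genes. Their summed level was 34939, 28310, 28453 and 30359 CPM in the controls and 62039, 57797, 54598 and 50441 CPM in WT ARGFX 1, 2, A and B, and COL1A1 or COL1A2 was the most abundant in each. The only smooth muscle markers with an identifier, ACTA2 and LMOD1, which come from the same list, rose in the same samples, to sums of 1951, 1855, 1825 and 2931 CPM from 643, 865, 493 and 764 CPM. The share of these markers in the matrix and contractile results was not tested. The other smooth muscle markers and all epithelial, endothelial, immune, melanocyte and fat cell markers have no identifier here and were not analysed.

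The direct comparison with the mutant allele found few differences, most of them lower with WT ARGFX. At an adjusted p under 0.05, 60 genes were higher with WT ARGFX than with mutant ARGFX (0.594% of 10094) and 196 were lower (1.94%). The study's methods removed a further mutant ARGFX sample before testing because it grouped with the WT ARGFX samples, a choice that favors a difference between the alleles, and that sample was not analysed here. Both groups were also compared with the same control samples. The 44 genes lowered over 8-fold had a median log2 fold change of -5.09 with WT ARGFX and -1.71 with mutant ARGFX, and all 44 were lower with WT ARGFX in the direct test. Of the 373 genes lowered 1.5- to 2-fold, with medians of -0.69 and -0.46, 37 were lower. Of the 63 genes raised over 2-fold, with medians of 1.12 and 0.76, 16 were higher with WT ARGFX. These classes were formed on the same WT ARGFX samples, which favors a difference in that direction. ENSBTAG00000012406.6 differed by -6.59 ± 0.42 (log2, SE, adjusted p 2.12e-08, edgeR's quasi-likelihood test).

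Among the 220 named genes 35 were higher with WT than with mutant ARGFX and none was lower. These genes were listed because they rose in the same WT ARGFX samples, which favors higher values with WT ARGFX. MMP3 differed most, by 3.67 ± 0.24 (log2, SE, adjusted p 2.69e-08, edgeR's quasi-likelihood test), followed by APOA1 at 3.38 ± 0.33. MMP12 was higher by 1.75 ± 0.18, ASPA by 1.59 ± 0.16, SERPINE2 by 1.39 ± 0.16 and CALCB by 1.07 ± 0.16. For the collagens none of the 8 differences passed, with COL1A1 at 0.40 ± 0.17 (adjusted p 0.343) and COL3A1 at 0.40 ± 0.15 (adjusted p 0.272), sizes that the error does not resolve. FN1 differed by 0.45 ± 0.28 (adjusted p 0.617) and ACTA2 by 0.80 ± 0.19 (adjusted p 0.0411).

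The comparison with LEUTX, a second ETCHbox gene, found far more differences, with 2306 genes higher with WT ARGFX (22.8%) and 1913 lower (19%). For the named genes 90 of 220 were higher and 46 lower with WT ARGFX, and the choice of these genes favors the first direction here too. Collagens divided: COL15A1 was higher with WT ARGFX by 2.43 ± 0.14 (log2, SE), COL6A3 by 1.73 ± 0.21 and COL3A1 by 1.62 ± 0.14, whereas COL11A1 was lower, at -0.72 ± 0.18. Proteases and secreted genes divided, with MMP3 higher by 2.30 ± 0.20 and IL34 by 1.6 ± 0.16 with WT ARGFX. CALCB was far lower with WT ARGFX, at -4.89 ± 0.16 (adjusted p 1.44e-12, edgeR's quasi-likelihood test), as were SERPINE2 at -1.98 ± 0.15 and MMP12 at -1.47 ± 0.16. LMOD1 differed by -0.06 ± 0.18 and FN1 by -0.26 ± 0.25, neither of which passed. Of the 44 genes lowered over 8-fold, 35 were higher with WT ARGFX than with LEUTX and 3 lower, and their median with LEUTX was -6.95.

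**Figure D5:**
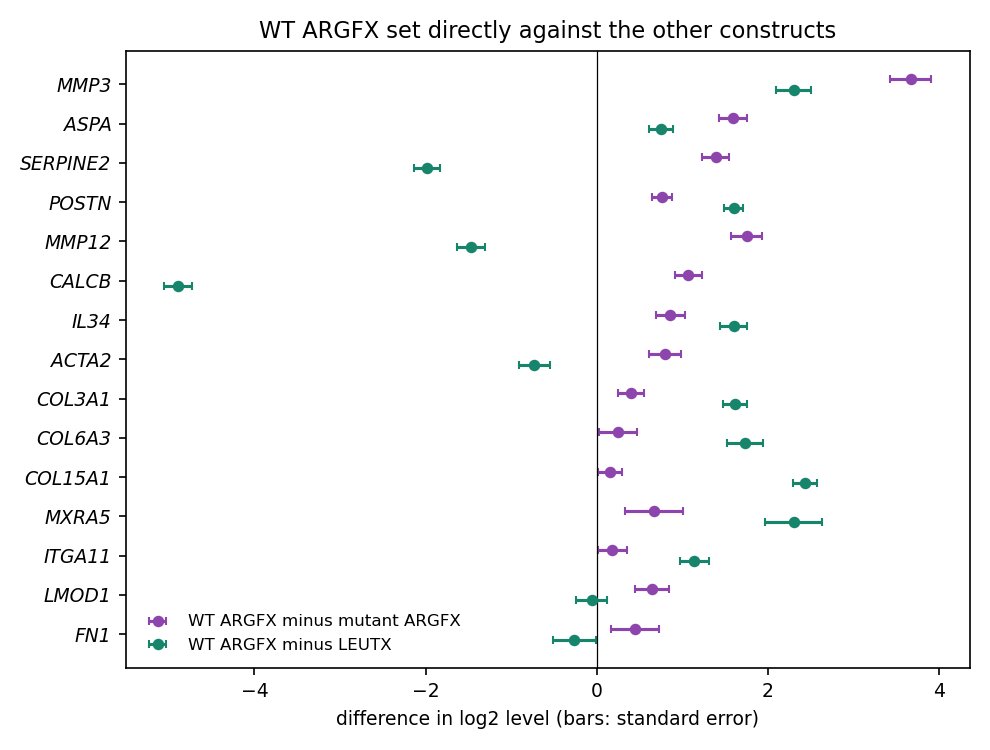
Difference in log2 level between WT ARGFX and mutant ARGFX (purple) or LEUTX (green) for 15 named genes, with bars for the standard error and points right of 0 higher with WT ARGFX. MMP3 is right of 0 in both comparisons (3.67 and 2.30), whereas CALCB and SERPINE2 are higher than with mutant ARGFX and lower than with LEUTX.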

How the data were processed

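The authors pseudoaligned the reads with kallisto 0.46.1 to the ARS-UCD1.2 transcriptome with ETCHbox sequences added, and the deposited table holds gene-level expected counts without normalization (21665 genes, 93.1% of values whole). No column was left unused. Counts were rounded and fitted for all 15 samples with edgeR 4.0.16 in R 4.3.3 (low-count filter, TMM, quasi-likelihood test, Benjamini-Hochberg). The standard error was derived from the fold change and F. The study used a mean TPM over 2; here 5.37 CPM was matched to it on 1998 genes of a TPM sheet, where 1212 genes exceed each threshold and 1151 exceed both. On counts simulated for this comparison (14264 genes, 200 changed 2-fold), 96% were recovered with 4 false calls. The changed genes all lay above the CPM threshold, and no simulated sample stood apart as sample B did. Recovery of changes under 2-fold, which most called genes had, was not simulated. The per-sample differences from the control mean used a pseudocount of 0.1 CPM.

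Symbols came from the study's list of upregulated genes and the ETCHbox rows. The RefSeq table (ARS-UCD2.0) held all 220 symbols but 0 of the identifiers, and no coordinates are given. The samples, the 14 gene lists and the rules were chosen with earlier results of these data known. Named were ARGFX, the 4 largest called changes and every uncalled member of each list, the 3 largest increases with a symbol, and, without one, 2 genes each way; cell type markers were added. No 2 samples of a group agreed within sampling noise. Alternatives included DESeq2 1.42.0, other thresholds and filters, a replicate block, a surrogate variable (sva 3.50.0) and each sample left out.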

Additional observations from a re-analysis of the deposited data

Results flagged for a closer look

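The levels of single genes in the 4 control or the 4 WT ARGFX samples were examined as 153 sets. In 15 sets a sample lay far from the other 3 by Dixon's criterion, and 11 of the 15 were WT ARGFX sample B. Chance gives about 1 in 20 for a single set. The sets share the same samples and are not independent, so that rate is no test of their number. In that sample FN1 was 3578 CPM (others 6743 to 7092), MYH9 909 CPM (1638 to 1689), FBN1 1086 CPM (1559 to 1628), MRC2 217 CPM (346 to 365), MAP1B 66.4 CPM (204 to 218), CREB3L2 12.2 CPM (22.6 to 23.8) and MEIS3 5.58 CPM (7.78 to 8.1). The same sample was high for ACTA2 at 2902 CPM (1800 to 1923), CKB at 53.1 CPM (29.7 to 33.2), SNAI2 at 63.2 CPM (51.3 to 51.6) and KLF2 at 48.8 CPM (38.2 to 40.0). ARGFX itself was high in WT ARGFX 1, at 4506 CPM against 3039 to 3175 CPM. SELENOV was low in WT ARGFX sample A, at 4.34 CPM against 5.33 to 5.51 CPM. Among the controls, PLPP7 was low in sample 2, at 1.08 CPM against 2.64 to 2.92 CPM, and PRKACA was high in sample 1, at 32.3 CPM against 23.4 to 24.8 CPM.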

How the results depend on the processing

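No log2 fold change of a named gene and no median of the called genes changed sign under any alternative. Counts and shares cannot change sign. Which direction held more called genes did vary. More were down in the main fit, but more were up with no fold change threshold and without sample B. The same held without control 1 (616 up, 608 down) and without control 3 (615 up, 584 down). The counts of 551 genes up and 586 down became 877 and 978 with no CPM threshold, 1866 and 1742 with no fold change threshold, and 67 and 251 with glmTreat. The 63 genes raised and 213 lowered over 2-fold became 207 and 462 with no CPM threshold and 141 and 328 above 1 CPM. Above 1000 CPM the upregulated and downregulated shares became 21.6% and 3.73% with no fold change threshold and 7.09% and 2.84% by the control level, the upregulated share became 3.73% with glmTreat, and the downregulated one 1.49% in the numbered samples with or without the block. Leaving out 1 sample gave 496 to 681 genes up, 584 to 650 down, 52 to 82 raised and 205 to 220 lowered over 2-fold, and shares of 10.4% to 14.2% and 0.746% to 2.24% above 1000 CPM, the last without sample B. DESeq2 called 518 up and 614 down, and a surrogate variable in the model 580 and 590. In WT ARGFX 1 and 2 with the control samples of those numbers, deviations from the group means correlated at 0.31 and -0.53, which does not establish that the numbers pair the cultures, and a replicate block over all numbered samples gave 581 up and 588 down against 629 and 647 without it. Single named genes lost significance in 37 cases, among them KIF20B with DESeq2 (adjusted p 0.0563) and genes below the CPM threshold. ENSBTAG00000014529.5 and ENSBTAG00000012406.6 were at -10.15 and -9.22, and at -8.10 and -8.75 with a prior count of 2. Up to 1 CPM, where the median standard error was 0.49, the CPM threshold allows no call.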

Other observations

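The ETCHbox genes TPRX1, TPRX2 and TPRX3 had too few counts to be tested. LEUTX was at most 0.0985 CPM in any WT ARGFX sample, and its log2 fold change against control of 1.70 ± 1.46 (SE) did not pass (adjusted p 0.412, edgeR's quasi-likelihood test).

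Of the 30 interferon response and JAK/STAT genes listed, only 2 had an identifier paired with a symbol, and both were upregulated. Apart from the ETCHbox genes, symbols exist here only for genes on the study's list of upregulated genes, so both had to be, and the direction of the other genes of the list is not known from them. TYK2, a kinase of cytokine receptors, was at 40.5, 36.2, 38.2 and 24.2 CPM in WT ARGFX 1, 2, A and B against 22.7, 17.3, 24.6 and 15.8 CPM in the controls, so that sample B overlapped with the controls (0.79 ± 0.16 with B, 0.92 ± 0.13 without it, log2 and SE). NLRX1, a mitochondrial protein that dampens antiviral signaling, rose from 11 ± 1.87 to 19.4 ± 0.66 CPM (SD, n = 4) with no overlap. The other 28 genes were not analysed here.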
